A study of Mus musculus with 4 samples.

Results

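The IL-6 family was followed across the cell types of KPC pancreatic tumor grafts through 10 genes, chosen by symbol. They comprise the ligands Il6, Lif, Il11 and Osm, the receptor chains Il6ra, Il11ra1, Il6st, Lifr and Osmr, and the feedback inhibitor Socs3. All 10 were found among the 32285 genes of the count tables. KPC cells are mouse pancreatic ductal adenocarcinoma cells, grafted here into C57BL/6 mice aged 7 months per the sample labels. There were 4 libraries of single cells from dissociated tumors, 1 per condition. Pdgfrb-TK/GCV came from Pdgfrb-TK mice treated with ganciclovir, which kills dividing cells that carry the thymidine kinase transgene, and Pdgfrb-TK/PBS from Pdgfrb-TK mice treated with the vehicle. D-CAN came from wild-type (WT) mice treated with the peptide D-CAN, made to kill stromal cells of the adipose stromal type, and WT/PBS from wild-type mice treated with the vehicle. The mice of all groups were obese on a high-fat diet, and treatment was repeated over several weeks. The Pdgfrb promoter is active in pericytes as well as fibroblasts, and tumors of a treatment were pooled before capture, so a condition is 1 sample. The protocol text of the labels describes nuclei of another tissue, and the libraries were matched to conditions by their titles.

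IL-6 family cytokines signal through the shared chain gp130, encoded by Il6st. IL-6 and IL-11 first bind their own chains, IL-6RA and IL-11RA, while LIF and oncostatin M bring gp130 together with LIFR or OSMR. The receptors activate JAK kinases and STAT3, and STAT3 induces Socs3, which shuts the signal off. In pancreatic cancer the family is known for signals between tumor cells, cancer-associated fibroblasts (CAFs) and myeloid cells.

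Unique molecular identifiers (UMIs, counted RNA molecules) were added up over the cells of a class in each library and scaled to 1000000 UMIs of that class (CPM). A class is a set of cells that detect a minimum number of marker genes, so it is a range and not a sharp type. The 44554 cells kept had at least 200 genes each. Library totals ran from 84020317 to 155408336 UMIs, and 63.4% to 72.9% of cells fell in a class. Another 1.20% to 3.44% passed the gates of several types strongly enough to be left out as mixed, and 25.6% to 34.3% were unassigned. In D-CAN the unassigned cells had a median of 51.3% mitochondrial UMIs. Any pair of libraries shared 25 to 40 cell barcodes. The treated library of the Pdgfrb-TK model is listed first here, then its PBS library, then D-CAN and last WT/PBS. The CAF gate held 252, 416, 948 and 1555 cells, of which 67, 81, 92 and 170 sat at the minimum of 5 of 8 markers. In the same order there were 5806, 6188, 3096 and 4927 KPC tumor cells, 1665, 436, 863 and 854 macrophages and monocytes, 267, 339, 591 and 438 neutrophils, and 47, 135, 91 and 375 endothelial cells (ECs). The median CAF detected 6 to 8 of its 8 markers and 1 to 3 of the 10 tumor markers, and medians of the EC, neutrophil and pericyte lists were 0. All values that follow keep that library order. Intervals are exact at 95% and cover counting error only.

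Promoters are shown for Il6, the ligand with the largest excess in CAFs over tumor cells in the test reported further on, for Osmr, the receptor chain with the largest, and for Socs3, the readout of the pathway. The RefSeq sequences on GRCm38.p6 run from 250 bases before to 50 bases after the start, 5′ to 3′. Capitals mark matches to the STAT motif TTCNNNGAA and, in Il6 only, to the NF-kB motif.
Il6, chr5:30012864-30013163, plus strand: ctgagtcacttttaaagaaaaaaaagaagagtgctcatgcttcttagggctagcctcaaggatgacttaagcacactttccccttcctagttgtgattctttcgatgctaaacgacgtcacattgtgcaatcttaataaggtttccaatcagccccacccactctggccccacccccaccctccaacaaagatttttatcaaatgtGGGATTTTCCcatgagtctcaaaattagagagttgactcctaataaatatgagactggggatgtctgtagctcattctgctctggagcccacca
Osmr, chr15:6874264-6874563, minus strand: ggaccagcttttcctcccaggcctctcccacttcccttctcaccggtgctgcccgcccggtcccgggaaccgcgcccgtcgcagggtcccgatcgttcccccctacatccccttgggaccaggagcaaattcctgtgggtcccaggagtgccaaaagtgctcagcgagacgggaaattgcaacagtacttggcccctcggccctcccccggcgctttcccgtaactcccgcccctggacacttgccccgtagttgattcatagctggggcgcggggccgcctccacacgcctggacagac
Socs3, chr11:117969317-117969616, minus strand: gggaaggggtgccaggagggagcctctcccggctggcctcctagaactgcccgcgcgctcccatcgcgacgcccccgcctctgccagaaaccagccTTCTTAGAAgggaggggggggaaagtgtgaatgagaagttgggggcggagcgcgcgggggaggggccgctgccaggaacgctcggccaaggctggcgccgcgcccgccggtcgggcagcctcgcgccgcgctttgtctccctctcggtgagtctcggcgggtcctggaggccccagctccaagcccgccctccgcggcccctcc
Both strands were searched. The STAT motif was found in the Socs3 promoter, starting at position -154 from the start, and in no other promoter of a member. It occurred in 8.30% of all 32851 promoters of this length. The NF-kB motif lay at -44 in Il6 and at -178 in Lif, against 8.46% of all promoters. The AP-1 motif TGANTCA, in 7.81% of promoters, occurred in Il6 at -249, Lif at -228, Osmr at 3 and in 1 of the 2 Il11 promoters at -98. Such a match describes the letters and shows no binding. Promoters were found for 9 of the 10 genes, all but Osm.

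Some of the genes are neighbors in mm10. Osm (chr11:4236420-4241026) and Lif (chr11:4257557-4272514) lie 16530 bases apart on the plus strand with no protein-coding gene between them. Osmr (chr15:6813577-6874969, minus strand) and Lifr (chr15:7090614-7197489, plus strand) are separated by 215644 bases without another protein-coding gene. Il11ra1 (chr4:41699989-41769474) overlaps 6 other protein-coding genes in the annotation. It also has a near-identical copy, Il11ra2, listed under 3 identifiers with 1 UMI in all CAFs, so its counts are uncertain where reads fit both.

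**Figure D1:**
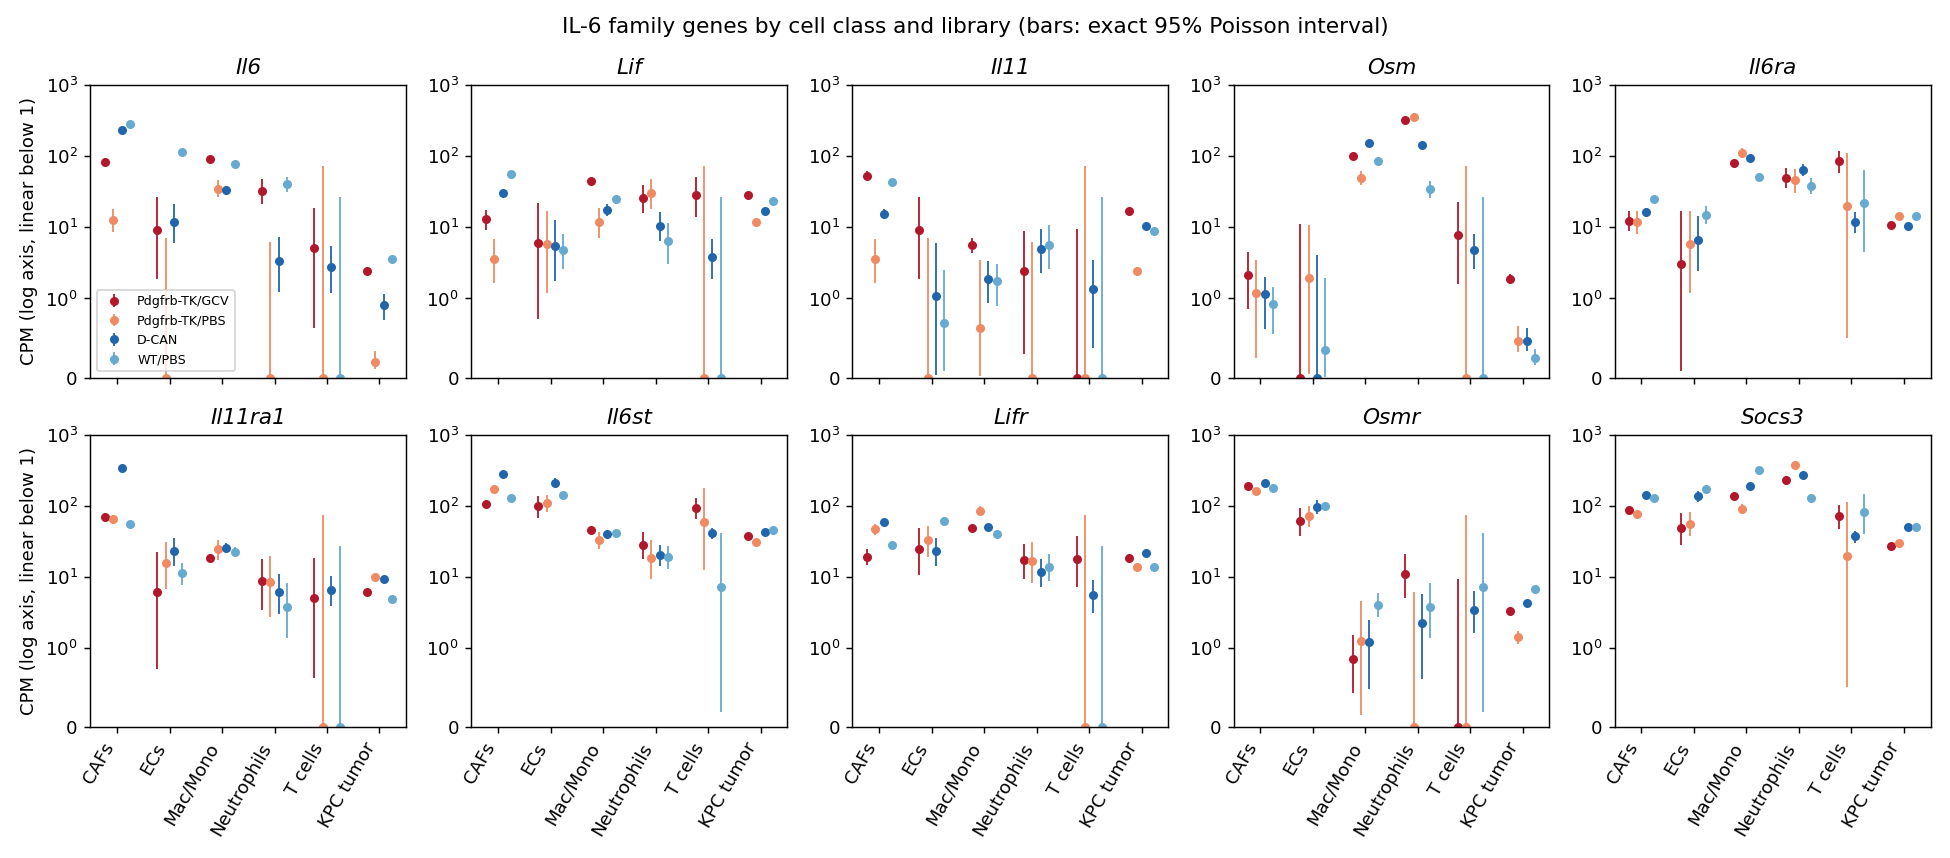
Level of each gene (CPM, log axis that is linear below 1) in 6 cell classes, 1 point per library with its exact 95% Poisson interval. Osm sits above 30 CPM in neutrophils and macrophages and monocytes and under 10 CPM elsewhere, while Osmr sits above 60 CPM in CAFs and ECs and under 12 CPM elsewhere.

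The ligands divided among the classes. Il6, the cytokine that names the family, was at 83.1, 12.7, 232 and 282 CPM in CAFs, and at 91.3, 35.0, 32.9 and 76.6 CPM in macrophages and monocytes. In KPC tumor cells it was at 2.45, 0.197, 0.918 and 3.55 CPM. CAFs were higher than macrophages and monocytes in D-CAN and WT/PBS only, so the order of these 2 classes differed between libraries. In ECs Il6 was at 9.16, 0, 12 and 113 CPM, the PBS value of the Pdgfrb-TK model resting on 0 UMIs in 135 cells. Lif, known for keeping stem cells undifferentiated, was at 12.9, 3.56, 30.7 and 55.6 CPM in CAFs and at 28.0, 11.9, 16.7 and 23.1 CPM in KPC tumor cells, and the ranges overlapped.

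Il11, a cytokine of fibrosis, was at 53.4, 3.56, 15.4 and 43.8 CPM in CAFs and at 16.9, 2.40, 10.3 and 8.87 CPM in KPC tumor cells. In each library CAFs were above tumor cells. The Pdgfrb-TK/GCV value leaned on 1 cell, which held 84 of 174 UMIs, and was 27.6 CPM without it. Osm, a product of activated myeloid cells, was at 326, 355, 144 and 34.1 CPM in neutrophils and at 100, 50, 151 and 86.4 CPM in macrophages and monocytes. It stayed at or under 2.15 CPM in CAFs, KPC tumor cells and ECs in every library. With each cell thinned to 2000 UMIs, 6.83% to 35.0% of neutrophils had an Osm UMI against 0.148% to 0.525% of KPC tumor cells, a class that should lack it. Unthinned, these shares were 7.76% to 31.1% and 0.485% to 2.29%, at median depths of 1141 to 2150 UMIs in neutrophils and 9213 to 23150.5 in KPC tumor cells. Thinning left out 233 to 291 neutrophils per library in 3 libraries and 164 in Pdgfrb-TK/GCV.

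The receptors had a different layout. Osmr, the oncostatin M receptor chain, was at 188, 162, 210 and 177 CPM in CAFs, 61.0, 71.4, 96.1 and 99.7 CPM in ECs, and 3.33, 1.42, 4.23 and 6.75 CPM in KPC tumor cells. The ranges of CAFs and ECs did not overlap, nor did those of ECs and any class below. Il6st, the shared chain, was at 106, 169, 282 and 129 CPM in CAFs, 97.7, 108, 210 and 140 CPM in ECs and 37.2, 30.8, 43.2 and 45.8 CPM in KPC tumor cells. All 6 classes held it, at 18.5 CPM or more outside T cells. Il11ra1 was at 70.2, 64.1, 336 and 54.6 CPM in CAFs, and D-CAN stood apart from the other 3 libraries. In macrophages and monocytes Il11ra1 was between 18.6 and 25.5 CPM.

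Il6ra, the chain that gives a cell its own IL-6 response, had its highest mean in macrophages and monocytes at 78.8, 111, 93.0 and 50.2 CPM, above neutrophils at 49.4, 45.5, 63.6 and 38.6 CPM in every library although the ranges overlapped. T cells of Pdgfrb-TK/GCV reached 84.6 CPM on 33 UMIs, and CAFs held 11.9 to 24.8 CPM. Lifr, the LIF receptor chain, was at 48.4, 84.4, 49.9 and 40.5 CPM in macrophages and monocytes and at 19.0, 46.7, 59.1 and 28.2 CPM in CAFs, in overlapping ranges. Socs3 was at 228, 370, 274 and 128 CPM in neutrophils, 137, 91.2, 192 and 318 CPM in macrophages and monocytes and 27.2, 30.4, 50.9 and 50.6 CPM in KPC tumor cells. WT/PBS was the library in which macrophages and monocytes exceeded neutrophils.

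Differences between classes were tested with edgeR's quasi-likelihood test over 24 sums, 6 classes in each of 4 libraries, with the library as a block and Benjamini-Hochberg adjustment over 13450 genes. The libraries also differ in treatment, so the spread against which a class difference was judged holds treatment effects too. That spread was estimated over all 24 sums, not over the compared classes alone. Between CAFs and KPC tumor cells 7 of the 10 genes passed, all of them higher in CAFs, against 26.4% of all genes that were higher and 24.5% that were lower. Il6 was higher by 6.68 on the log2 scale (SE 0.684, adjusted p = 2.77e-08), Osmr by 5.81 (SE 0.384, adjusted p = 2.41e-11) and Il11ra1 by 3.91 (SE 0.366, adjusted p = 6.86e-09). Il6st, Socs3, Il11 and Lifr were higher by 2.17, 1.53, 1.49 and 1.23. The Lifr call was lost without Pdgfrb-TK/PBS, at an adjusted p of 0.0508. The remaining Lif, Osm and Il6ra differed by 0.51, 1.21 and 0.50 with adjusted p of 0.409, 0.103 and 0.289 in edgeR, and Osm passed in DESeq2 (adjusted p = 0.0402).

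Between macrophages and monocytes and KPC tumor cells 6 of 10 were higher, where 26.6% of all genes were higher, and 1 was lower, where 29.1% were. Osm was higher by 7.53 (SE 0.557, adjusted p = 1.66e-10 in edgeR), Il6 by 5.68 and Il6ra by 2.84. Il11 was lower by 1.99 with an adjusted p of 0.000175, and without the library block its adjusted p was 0.0532. Between neutrophils and macrophages and monocytes the 3 genes that passed were lower in neutrophils, Il11ra1 by 2.0, Lifr by 1.90 and Il6 by 2.26, while 13.0% of all genes were lower and 12.1% higher. The Il6 call was lost without Pdgfrb-TK/PBS (adjusted p = 0.112 in edgeR), with no library block (adjusted p = 0.312) and with 1 marker fewer in the gate (adjusted p = 0.113). Without WT/PBS both Osm (adjusted p = 0.0340 in edgeR) and Socs3 (adjusted p = 0.0250) passed as higher in neutrophils. Between ECs and CAFs the 5 genes that passed were lower in ECs, among 19.4% of all genes that were lower and 13.5% that were higher. They were Il11 by 4.55, Il11ra1 by 3.20, Lif by 2.63, Il6 by 2.60 and Osmr by 1.48. Without D-CAN the Il6 and Lif calls were lost, and without WT/PBS the Lif call was. The Il6 call was also lost with no library block (adjusted p = 0.119 in edgeR), and the Lif call with 1 marker fewer in the gate (adjusted p = 0.0700).

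The wider pathway was read in the same tests. Of 8 signal transduction genes, such as the JAK kinases, 4 were higher in CAFs than in KPC tumor cells in the edgeR test, where 26.4% of all genes were, and 6 were higher in macrophages and monocytes than in KPC tumor cells, where 26.6% were. Of 10 immediate STAT3 targets, 6 were higher in CAFs, with a median of 0.83 over the list beside -0.04 over all genes. In ECs 7 of those 10 were lower than in CAFs, as were 19.4% of all genes.

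**Figure D2:**
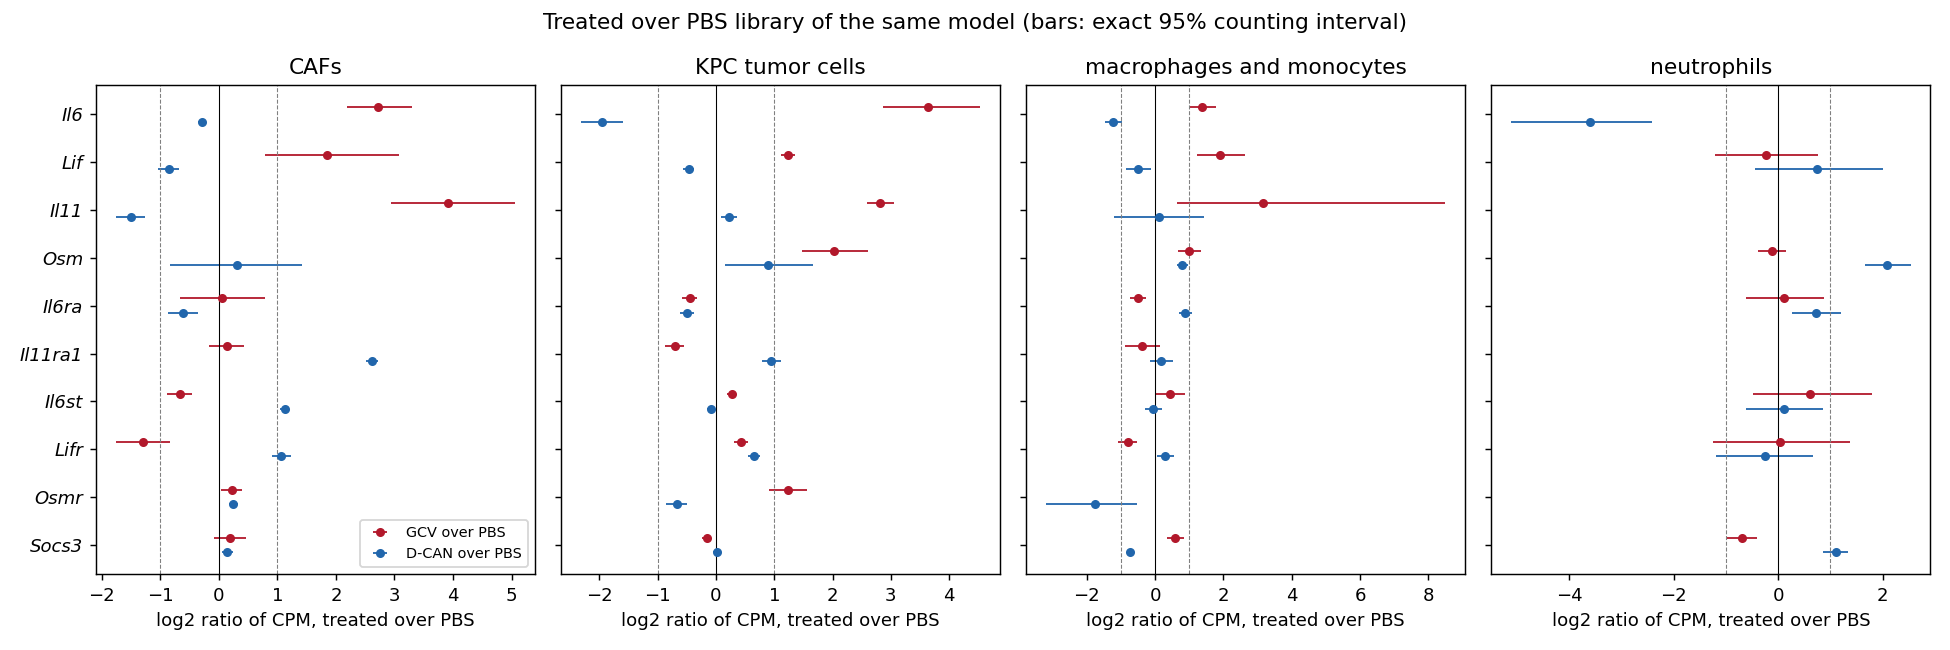
Log2 ratio of CPM in the treated library over the PBS library of the same model, in 4 classes, with the exact 95% counting interval. Genes with under 20 UMIs in the 2 libraries, or at 0 in one, are left out, and the dashed lines mark 2-fold. The GCV points of Il6, Lif and Il11 lie to the right in CAFs, KPC tumor cells and macrophages and monocytes.

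Each treated library was then set beside the PBS library of its own model, to describe what ganciclovir and D-CAN went along with. With 1 library a side there was no test. A gene is called 2-fold apart where the ratio of CPM + 1 was 2 or more, in either direction, with at least 20 UMIs over both libraries. Changing the scaling to TMM moved all log2 ratios of a class by at most 0.218. Shares of cells with a UMI, after thinning to 2000 UMIs, are given beside 2 of the main results.

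In CAFs of Pdgfrb-TK/GCV, 4 of 9 genes were 2-fold apart from Pdgfrb-TK/PBS, against 8.61% of all genes. The 3 ligands were higher. Il6 was 6.57-fold higher (4.54 to 9.80), from 271 and 32 UMIs. At 2000 UMIs per cell, 14.2% (10.1 to 19.2) and 1.03% (0.282 to 2.62) of these CAFs had an Il6 UMI, and before thinning 34.1% and 5.05% had. Il11 was 15-fold higher (7.72 to 33.3), or 9.97-fold (4.65 to 25.5) without the single richest cell of each library, a setting chosen after seeing the data. Lif was 3.62-fold higher (1.74 to 8.46), and Lifr was 2.45-fold lower (1.79 to 3.39). Osmr differed by 1.16-fold and Socs3 by 1.14-fold. The median CAF of Pdgfrb-TK/GCV detected 1 of the 10 macrophage and monocyte markers, against 0 in the other 3 libraries, and 3 tumor markers against 2 in Pdgfrb-TK/PBS, and the part of these in the result was not tested.

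KPC tumor cells of Pdgfrb-TK/GCV showed the same 3 ligands 2-fold apart out of 10 genes, against 5.19% of all genes. Il11 was 7.03-fold higher (6.00 to 8.28) and Lif 2.35-fold higher (2.18 to 2.55). Il6 was 12.4-fold higher (7.27 to 23.1) at very low levels. Osm was 4.05-fold higher (2.78 to 6.06), at 1.88 and 0.463 CPM, and Osmr 2.35-fold higher (1.87 to 2.97). Both stayed under 2-fold with 1 CPM added to each side, so neither was counted. The median KPC tumor cell of Pdgfrb-TK/GCV detected 1 of the macrophage and monocyte markers, against 0 in Pdgfrb-TK/PBS. The part of this in the result was not tested. In macrophages and monocytes Il6, Lif and Il11 were 2.61-fold (1.99 to 3.47), 3.70-fold (2.35 to 6.20) and 9.0-fold (1.57 to 360) higher, the last resting on 1 control UMI, so 3 of 9 genes were apart against 10.0% of all genes. Osm was 2.01-fold higher there (1.60 to 2.55), but its log2 ratio of CPM + 1 was 0.993, under 1, so it was not counted. Without the richest cell of each library that ratio was 1.18. The median macrophage or monocyte of Pdgfrb-TK/GCV detected 1 neutrophil marker, against 0 in Pdgfrb-TK/PBS. Neutrophils held Osm at 326 and 355 CPM in these libraries. The part of this in the Osm ratio was not tested. In neutrophils Il6 alone of 7 genes was apart, against 10.3% of all genes. It had 26 UMIs in Pdgfrb-TK/GCV and 0 UMIs in 339 cells of Pdgfrb-TK/PBS, a ratio of 6.35 against a floor of 3 counts. The exact interval of the fold began at 4.81, and at 2.83 without the richest cell, which held 10 of the 26 UMIs. With 1 marker more in the gate it was no longer counted. The median neutrophil of Pdgfrb-TK/GCV detected 1 macrophage and monocyte marker, against 0 in Pdgfrb-TK/PBS. Macrophages and monocytes held Il6 at 91.3 and 35.0 CPM in these libraries. The part of this in the neutrophil result was not tested.

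The control library decides much of this. The 2 PBS libraries themselves differed, Il6 in CAFs being 22.3-fold lower (15.8 to 32.6) in Pdgfrb-TK/PBS than in WT/PBS, Lif 15.6-fold lower (8.19 to 34.2) and Il11 12.3-fold lower (6.46 to 27.0). Against WT/PBS, the CAFs of Pdgfrb-TK/GCV had Il6 lower by 1.75 and Lif lower by 2.03 on the log2 scale. Il11 was higher there by 0.28 and Lifr lower by 0.54, both under 2-fold. In KPC tumor cells of Pdgfrb-TK/GCV against WT/PBS, Il6 was lower by 0.40, and Lif and Il11 were higher by 0.27 and 0.86, under 2-fold. In its macrophages and monocytes Il6 and Lif were higher by 0.25 and 0.81, under 2-fold, and Il11 by 1.27. Osmr in CAFs was 1.10-fold lower (0.990 to 1.22) in Pdgfrb-TK/PBS than in WT/PBS. Model, genotype and library cannot be told apart here.

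In CAFs of D-CAN, 4 of 10 genes were 2-fold apart from WT/PBS, against 19.1% of all genes. The higher ones were receptor chains, but Il6ra and Osmr were not among them. Il11ra1 was 6.15-fold higher (5.74 to 6.59), Il6st 2.19-fold (2.07 to 2.31) and Lifr 2.10-fold (1.87 to 2.35), while Il11 was 2.84-fold lower (2.41 to 3.36). Il6 was 1.22-fold lower (1.16 to 1.27) and Il6ra 1.53-fold lower (1.28 to 1.82), while Osmr was 1.18-fold higher (1.12 to 1.25). At 2000 UMIs per cell, an Il11ra1 UMI was seen in 41.1% (37.9 to 44.5) of D-CAN CAFs, against 9.05% (7.64 to 10.6) of WT/PBS CAFs, and before thinning in 73.8% and 35.0%. Against Pdgfrb-TK/PBS as the control, Il11ra1 in CAFs of D-CAN was still higher by 2.37 on the log2 scale, but Il6st and Lifr were higher by 0.74 and 0.34, under 2-fold. The ligands turned, Il11 being higher by 1.85 and Il6 standing at 232 against 12.7 CPM.

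In KPC tumor cells of D-CAN 1 of 10 genes was apart, against 9.09% of all genes, Il6 being 3.87-fold lower (3.03 to 4.98). Its levels there were very low, 0.918 and 3.55 CPM, beside 232 and 282 CPM in CAFs of these libraries. The median KPC tumor cell of both libraries detected 1 CAF marker. The part of CAF RNA in this ratio was not tested. In macrophages and monocytes 2 of 10 were apart, against 17.7%, with Il6 2.33-fold lower (1.97 to 2.76) and Osmr 3.37-fold lower (1.44 to 9.13) on 7 and 28 UMIs. Osmr was at 1.21 and 4.06 CPM there, beside 210 and 177 CPM in CAFs of these libraries. The median macrophage or monocyte of both libraries also detected 1 CAF marker. The part of CAF RNA in these 2 ratios was not tested. In neutrophils 3 of 7 were apart, against 19.8%. Osm was 4.23-fold higher (3.14 to 5.78) there and Socs3 was higher by 1.09 on the log2 scale, while Il6 was 12.2-fold lower (5.30 to 34.5). The median neutrophil of WT/PBS detected 1 of the 8 CAF markers, against 0 in D-CAN. The part of this in the Il6 result was not tested. Against Pdgfrb-TK/PBS the neutrophil differences turned, Osm being at -1.29 and Socs3 at -0.43 on the log2 scale and Il6 at 2.11 on 6 and 0 UMIs, which is under the minimum of 20. The Il6 difference in KPC tumor cells turned too, to 0.68.

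**Figure D3:**
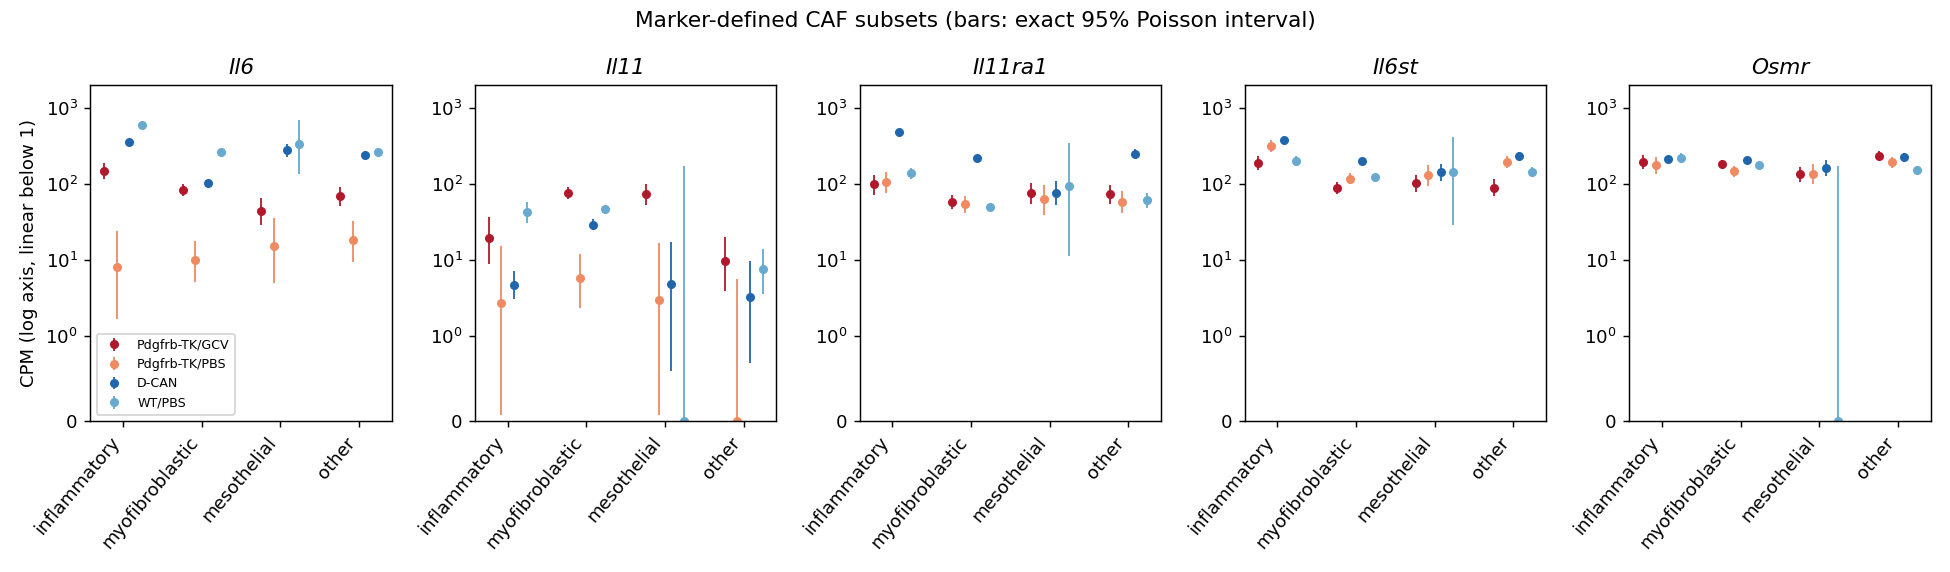
Level (CPM, log axis that is linear below 1) of 5 genes in marker-defined subsets of CAFs, 1 point per library with its exact 95% Poisson interval. Il11ra1 is highest in D-CAN in the inflammatory-type, myofibroblastic and other CAFs, and Osmr stays within 147 to 220 CPM in the first 2.

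The makeup of the CAFs differed between libraries. Inflammatory-type cells, gated on markers such as Clec3b and Dpt without Il6, made up 15.1%, 16.3%, 49.1% and 5.66% of CAFs, and myofibroblastic cells, gated on markers such as Acta2 and Tagln, 39.7%, 41.1%, 33.6% and 85.4%. Il11ra1 in D-CAN was at 487 CPM in inflammatory-type and 220 CPM in myofibroblastic cells, against 139 and 49.5 CPM in WT/PBS. Within a subset it was thus 3.52-fold (2.95 to 4.23) and 4.45-fold (4.06 to 4.87) higher. Only 4 mesothelial-marker cells were found in WT/PBS, and there Il11ra1 was lower by 0.29 on the log2 scale. Il6st was 1.88-fold (1.62 to 2.19) and 1.64-fold (1.52 to 1.77) higher within these subsets, under 2-fold in both. Lifr, 2.10-fold higher over all CAFs of D-CAN, was 1.98-fold (1.44 to 2.80) and 1.38-fold (1.16 to 1.65) higher within them and 1.30-fold (0.833 to 2.03) in the CAFs of no subset. Il6ra was 3.62-fold lower (2.55 to 5.10) in inflammatory-type cells, on 86 and 58 UMIs, and 1.78-fold lower (1.36 to 2.36) in myofibroblastic cells. Il11 was 8.94-fold lower (5.26 to 15.5) in inflammatory-type cells, on 24 and 40 UMIs, and 1.60-fold lower (1.34 to 1.92) in myofibroblastic cells. Il6, which differed little over all CAFs, was 1.70-fold lower (1.55 to 1.87) in inflammatory-type and 2.55-fold lower (2.33 to 2.80) in myofibroblastic cells of D-CAN. It was 1.10-fold lower (0.925 to 1.31) in the CAFs of no subset. In mesothelial-marker cells it was 1.19-fold lower (0.470 to 2.54), on 115 and 7 UMIs. In Pdgfrb-TK/GCV Il6 was 18.3-fold (6.02 to 91.0) higher in inflammatory-type cells, on 3 control UMIs, and 8.25-fold (4.56 to 16.4) higher in myofibroblastic cells. It was 3.73-fold higher (1.96 to 7.71) in the CAFs of no subset. In mesothelial-marker cells it was 2.91-fold higher (1.10 to 9.75), on 25 and 5 UMIs.

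**Figure D4:**
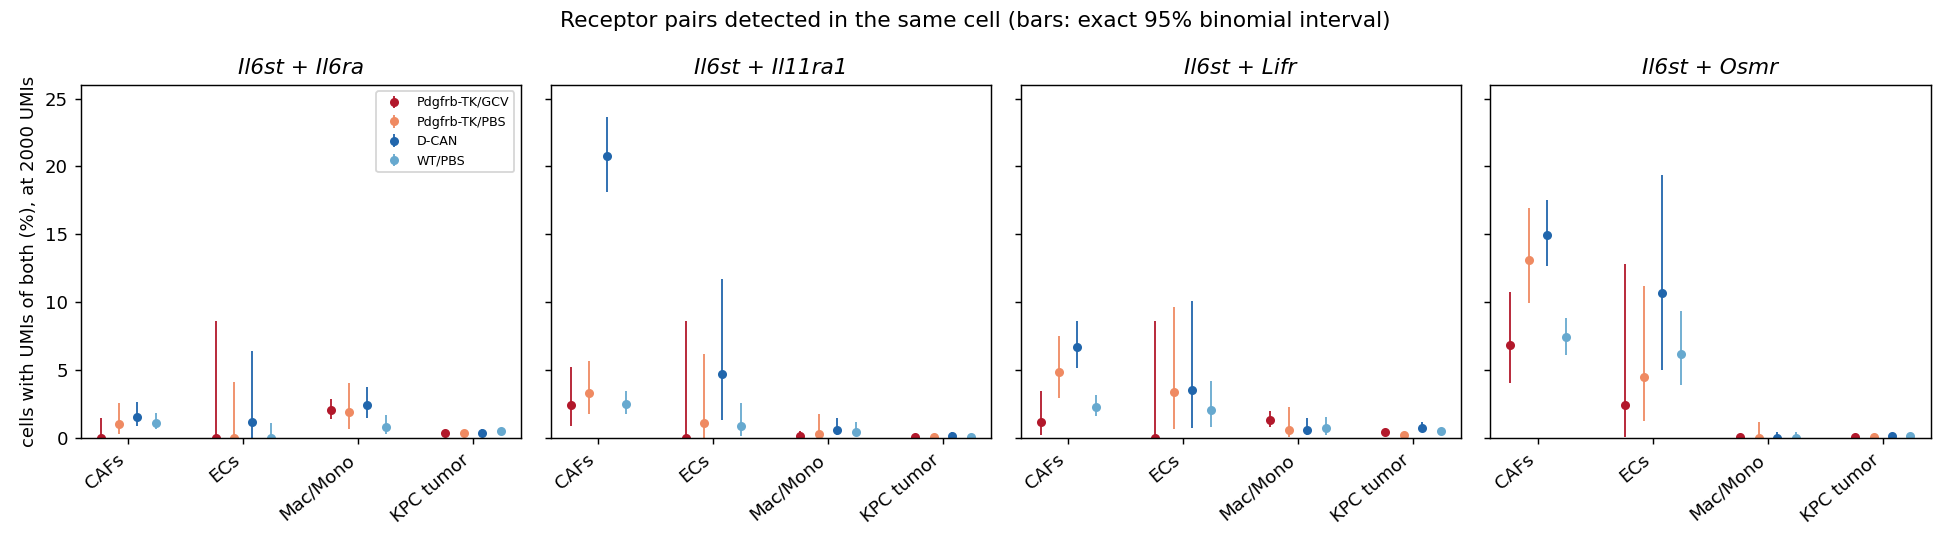
Share of cells (%) with UMIs of both Il6st and a partner chain after thinning each cell to 2000 UMIs, with the exact 95% binomial interval, 1 point per library. Il6st with Osmr is seen together in CAFs and ECs, and Il6st with Il11ra1 in CAFs of D-CAN.

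Detection of both chains in the same cell followed the levels. At 2000 UMIs per cell, Il6st and Osmr were detected together in 6.88% (4.06 to 10.8), 13.1% (9.95 to 16.9), 15% (12.7 to 17.5) and 7.42% (6.13 to 8.88) of CAFs, and in at most 0.169% of KPC tumor cells. Il6st with Il11ra1 was found in 20.8% (18.2 to 23.6) of CAFs in D-CAN and in 2.43%, 3.35% and 2.52% in the other libraries. Il6st with Il6ra was detected in 0.847% to 2.43% of macrophages and monocytes. Before thinning, Il6st and Osmr were found together in 54.8%, 34.4%, 65.0% and 50.9% of CAFs, at median depths of 11210, 5135.5, 10148.5 and 11418 UMIs. The order of the 2 libraries of the Pdgfrb-TK model was thus the opposite of that after thinning.

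Genes around the pathway, from the lists fixed for it, were read by the same 2-fold rule, with log2 ratios of CPM + 1 throughout. Each of these ratios rests on 1 library a side and is given without an interval. The PBS libraries were not exchanged as controls for the list genes, so how far their ratios depend on the control was not tested. IL-1 and TNF induce Il6 in fibroblasts. The list of 8 genes for IL-1, TNF and NF-kB inputs also holds the inhibitors Il1rn, Nfkbia and Tnfaip3, so its counts mix both kinds. Of the 8, 4 were 2-fold or more lower in CAFs of D-CAN (Il1a, Il1b, Tnf and Il1rn, all under 23 CPM). Of all genes 19.1% were apart there in either direction, and the list median was -1.19 beside 0.13 over all genes. In the edgeR test CAFs minus KPC tumor cells stood at -0.14, 1.46, 0.03 and -2.22 on the log2 scale for these 4. Macrophages and monocytes minus KPC tumor cells stood at 5.49, 7.52, 4.29 and 2.67. The median CAF of D-CAN and of WT/PBS detected 0 macrophage and monocyte markers. The part of myeloid RNA in these CAF ratios was not tested. In KPC tumor cells of Pdgfrb-TK/GCV, 4 of the 8 were higher (Il1a, Il1b, Tnf and Tnfaip3), against 5.19% of all genes apart, with a median of 1.02 beside 0.11. In the edgeR test these 4 were higher in macrophages and monocytes than in KPC tumor cells, by 5.49, 7.52, 4.29 and 2.47 on the log2 scale. The median KPC tumor cell of Pdgfrb-TK/GCV detected 1 macrophage and monocyte marker, against 0 in Pdgfrb-TK/PBS, and the part of this here was not tested. In CAFs of Pdgfrb-TK/GCV 2 of the 7 with enough UMIs were higher, against 8.61% of all genes apart in either direction. They were the NF-kB inhibitors Nfkbia and Tnfaip3, by 1.20 and 1.06. The list median was -0.10 beside -0.12 over all genes. Il1b in neutrophils was lower in Pdgfrb-TK/GCV by 1.01 and higher in D-CAN by 1.53, where Il1a was higher by 1.35. Il1rn, which blocks the IL-1 receptor, was lower in macrophages and monocytes of D-CAN by 1.83, and Il1r1 by 1.68, while Il1r1 was higher there by 1.34 in Pdgfrb-TK/GCV on 8 control UMIs. Il1a in KPC tumor cells of D-CAN was lower by 1.17.

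Of the 8 signal transduction genes, 1 in CAFs, 1 in KPC tumor cells, 2 in macrophages and monocytes and 3 in neutrophils were higher in D-CAN and 0 were lower, against the 19.1%, 9.09%, 17.7% and 19.8% of all genes apart in either direction. They included Jak2 and Jak1 in neutrophils, by 1.56 and 1.03, and Tyk2 in macrophages and monocytes, at 29.4 and 14.2 CPM. Gab1, an adaptor of gp130, was higher in Pdgfrb-TK/GCV by 1.13 in KPC tumor cells and by 2.34 in neutrophils on 31 and 4 UMIs. Neutrophils minus macrophages and monocytes stood at -2.09 for Gab1 in the edgeR test, and macrophages and monocytes minus KPC tumor cells at 3.38. The median cell of both classes detected 1 macrophage and monocyte marker in Pdgfrb-TK/GCV, against 0 in Pdgfrb-TK/PBS. The part of myeloid RNA in these Gab1 ratios was not tested. Of the inhibitors, Socs1 was higher in D-CAN in KPC tumor cells by 1.55 and in neutrophils by 1.34, and the phosphatase Ptpn6 in KPC tumor cells by 1.36 and in macrophages and monocytes by 1.87. Cish was higher in Pdgfrb-TK/GCV in KPC tumor cells by 1.07 and in macrophages and monocytes by 1.21, and lower in CAFs of D-CAN by 2.06. Pias3 was lower in CAFs of Pdgfrb-TK/GCV by 1.05.

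Of the 10 immediate STAT3 targets, 1 was 2-fold or more lower in CAFs of D-CAN, Myc, and 1 higher in CAFs of Pdgfrb-TK/GCV, Timp1, at 5021 and 1885 CPM. Of all genes 19.1% and 8.61% were apart in these comparisons. Timp1 was also higher in Pdgfrb-TK/GCV in KPC tumor cells by 1.02 and in neutrophils by 1.72, and lower in macrophages and monocytes of D-CAN by 1.40. Pim1 was higher in KPC tumor cells of Pdgfrb-TK/GCV by 1.27 and in neutrophils of D-CAN by 1.14, Junb in neutrophils of D-CAN by 1.28 and Myc in neutrophils of Pdgfrb-TK/GCV by 1.87. Of the 5 other family ligands with enough UMIs in CAFs of D-CAN, 1 was higher and 2 were lower, against 19.1% of all genes apart. The lower ones were Clcf1 by 1.03 and Cntf by 1.13. With GCV 1 of 6 was higher in KPC tumor cells, against 5.19% of all genes apart. In macrophages and monocytes with GCV 1 of 4 was higher, against 10.0%. The IL-27 chains Il27 and Ebi3 were higher in macrophages and monocytes of D-CAN by 1.54 and 1.07, and Il27 in its neutrophils by 1.19. Il31ra was higher in KPC tumor cells of Pdgfrb-TK/GCV by 1.04.

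Across the 26 sums of a class and library with at least 50 cells, the 3 genes most like each member, by Pearson's r on log2(CPM + 1), are given as a description. For the ligands they were Ccl2, Cd302 and Pdpn for Il6 (r = 0.89, 0.82 and 0.82), Hk2, Aifm2 and Fbxo32 for Lif (r = 0.77, 0.73 and 0.72), Grem1, Arhgef17 and Rdh10 for Il11 (r = 0.75, 0.75 and 0.74), and C5ar1, Ccr1 and Igsf6 for Osm (r = 0.97, 0.95 and 0.94). For the chains that bind a ligand first they were Adgre1, Fcgr4 and Pirb for Il6ra (r = 0.85, 0.85 and 0.84) and Mcrip1, Tmem176a and Tmed3 for Il11ra1 (r = 0.90, 0.88 and 0.87). Il6st was followed by Tceal9, Prkar1a and Mtch1 (r = 0.92, 0.92 and 0.92), Lifr by Soga1, Osbpl1a and Fcgrt (r = 0.88, 0.87 and 0.83), and Osmr by Eln, Grb10 and Adamts4 (r = 0.96, 0.95 and 0.95). Socs3 was closest to Dusp1, Cebpb and Gab2 (r = 0.88, 0.88 and 0.87). Adgre1 is a marker of the macrophage gate, and the sums share libraries, so they are not independent.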

How the data were processed

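Droplet scRNA-seq was measured in 4 libraries. The authors deposited raw UMI counts per gene and cell, made with Cell Ranger (version 7.0.0 per the file headers, another version in the study's methods) and, per the labels, STAR 2.6 on mm10, for cells already called by that software. No annotation of cells was used. Cells with at least 200 genes were gated on marker lists, with thresholds set after marker distributions were seen. No doublet caller was run. A host gate is any gate but that of KPC tumor cells. Cells were left out as mixed where a second host gate passed with at least 0.75 of the top gate's marker share. Cells that passed a host gate with 6 or more tumor markers were also left out. Those with fewer, even at the tumor gate's minimum of 4, or with a weaker second host gate, stayed in their class. Reporter features of the wild-type libraries were left out of totals.

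Counts were summed per library and class. Folds have exact conditional binomial intervals, CPM exact Poisson intervals, and shares Clopper-Pearson intervals. Log2 ratios used a pseudocount of 1 CPM. Class contrasts used edgeR 4.0.16 (R 4.3.3) with DESeq2 1.42.0 as an alternative. The SE of an edgeR contrast was derived as the size of the log2 difference over the square root of its F statistic. On simulated data for CAFs minus KPC tumor cells over 11184 genes, all 4-fold and 22.5% of 2-fold changes were recovered. There every class had the KPC tumor cell profile at a dispersion of 0.1, with 200 genes changed in CAFs and no library or treatment effects. The real sums differ in these respects, so the recovery is not the power of the tests above. The members and lists were chosen with earlier results of these data known. The genes named are the members, list genes past 2-fold with at least 20 UMIs and, among genes of at least 10 CPM, the 3 of highest r with each member, and a few of the list genes are not reported here. Alternatives changed the cell filters, gates, control library, scaling, pseudocount, test, block, libraries and depth. Coordinates are from GENCODE M21. Python 3.11.15, numpy 2.4.6 and scipy 1.17.1 were used.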

Additional observations from a re-analysis of the deposited data

Results flagged for a closer look

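Il11 had 53 UMIs in B cells of D-CAN, outside the classes compared, and all lay in 1 of 102 cells. B cells of WT/PBS had 0 Il11 UMIs in 6 cells. Il6 had 22 UMIs in cells with mast cell and basophil markers of WT/PBS, in 2 of 6 cells, and 0 UMIs in the 8 such cells of Pdgfrb-TK/PBS. What these cells are was not tested.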

How the results depend on the processing

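When the 2 PBS libraries were exchanged as controls, 9 of the 21 ratios that were 2-fold apart turned sign and 2 stayed past 2-fold. On the log2 scale they were -1.75 for Il6 and -2.03 for Lif in CAFs with GCV, 1.85 for Il11 in CAFs with D-CAN, -0.40 and 0.68 for Il6 in KPC tumor cells with GCV and D-CAN, -0.33 and 2.11 for Il6 in neutrophils (the second on 6 and 0 UMIs, under the minimum of 20), and -1.29 for Osm and -0.43 for Socs3 in neutrophils with D-CAN. Counts of genes apart then became 2 in CAFs with GCV, 1 and 2 in KPC tumor cells with GCV and D-CAN, and 2 in neutrophils with GCV. Under the other 7 planned settings all 21 kept their sign and 13 stayed past 2-fold in each. The minimum of 20 UMIs was not applied again for these numbers. Il6 in neutrophils with GCV, among the 13, fell under it with 1 marker more in the gate. A pseudocount of 5 CPM gave 1 gene in KPC tumor cells with GCV, 0 with D-CAN and 1 in macrophages and monocytes with D-CAN, TMM scaling gave 2 in CAFs with D-CAN, and 1 marker more gave 0 in neutrophils with GCV. Chosen after seeing the data, ratios within CAF subsets turned Il11ra1 to -0.29 in 28 and 4 mesothelial-marker cells.

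In the edgeR tests, genes lower in macrophages and monocytes than in KPC tumor cells numbered 2 with no filter on low counts, 0 with no library block and 2 without the deepest 5% of cells. Leaving out each library in turn gave 1 to 2 there, 0 to 2 genes higher in neutrophils than in macrophages and monocytes, and 3 to 5 lower in ECs than in CAFs. The cause was not tested. Thinning each cell to 2000 UMIs moved the share of neutrophils with an Osm UMI in D-CAN from 20.8% to 16.6%, and in the other 3 libraries it stayed within the counting interval. No paired analysis of treated against PBS libraries was possible because each group holds 1 library. Depth limits Il6 in ECs and neutrophils, where a library of 0 UMIs gives a bound only.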

Other observations

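Pericytes, gated on markers such as Rgs5 and Kcnj8, numbered 1, 18, 22 and 43 and were too few for the class comparisons. In WT/PBS they held 86 Il6 UMIs in 12 of 43 cells, at 350 CPM (280 to 433), and 94 Osmr UMIs at 383 CPM (309 to 469). The median pericyte of WT/PBS also detected 3 of the 8 CAF markers, and 16 of the 43 sat at the minimum of 4 pericyte markers. Their overlap with CAFs was not tested. The pericytes of D-CAN had a median of 4 CAF markers. In D-CAN the pericytes held 8 Il6 UMIs, 7 of them in 1 cell.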
